A study of Saccharomyces paradoxus and Saccharomyces cerevisiae and Nakaseomyces glabratus with 58 samples.

Results

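The transcriptome of wild type Kluyveromyces lactis (K. lactis) was set against that of wild type Saccharomyces cerevisiae (S. cerevisiae), both grown in a medium abbreviated BMW in the labels and collected in log phase, with 3 libraries of polyadenylated RNA each, lettered A to C. The members are orthogroups, that is, sets of genes that descend from 1 ancestral gene, and each holds exactly 1 gene in either species by the deposited orthology table. Of 4178 orthogroups with a gene in both species, 3401 met this rule, 2640 of them had a count row in both species, and 2610 passed the filter on low counts while 30 did not. The K. lactis identifier had no count row in 761 orthogroups, and 742 of these lie on K. lactis chromosome E, where 0 identifiers matched, against 99.3% to 99.8% on the chromosomes lettered A, B, C, D and F. Genes of chromosome E are therefore not analysed here. Another 447 orthogroups held 1 K. lactis gene and at least 2 S. cerevisiae genes and were not members. Of 138 listed cytosolic ribosomal protein genes, 20 were in single-copy orthogroups and 15 of these also had count rows and could be compared. The same genes were also followed in K. lactis delta sfp1 and S. cerevisiae delta sfp1 cells, in S. cerevisiae with HA-tagged Sfp1, and in wild type Saccharomyces paradoxus, Candida glabrata and Naumovozyma castellii, all in log phase with 3 libraries each. The labels name no strain, and whether the libraries of a group came from different cultures is not stated there, so p-values cover the spread between these libraries and no more. Species goes together with strain, genome, annotation and gene length, and these cannot be told apart here.

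K. lactis and S. cerevisiae are budding yeasts that handle sugar differently. S. cerevisiae descends from an ancestor that duplicated its whole genome and ferments glucose to ethanol even with oxygen present, while it represses respiratory genes. K. lactis branched off before that duplication and respires sugar in air, so its mitochondria carry much of its energy supply. Mitochondrial respiration needs the electron transport chain, the ATP synthase and the tricarboxylic acid (TCA) cycle, and a dedicated mitochondrial ribosome that makes a few core subunits of that machinery.

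The libraries summed to between 2493656 and 3025004 counts in K. lactis and between 1360916 and 3091488 counts in S. cerevisiae, of which 26% to 29.8% and 31.7% to 31.9% fell on the single-copy orthogroups. Identifiers that end in the letter r took 24% to 33% of the K. lactis counts. Levels are in CPM, counts scaled to a fixed total over the single-copy orthogroups and not divided by gene length, so they are compared between species for the same gene. Pearson correlations across genes of log2 CPM were between 0.9858 and 0.9875 among K. lactis libraries, between 0.9815 and 0.9900 among S. cerevisiae libraries, and between 0.779 and 0.792 across the species. SFP1, the regulator deleted elsewhere in the series, had 0 counts in every delta sfp1 library of both species, as the labels state.

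Of the 2610 orthogroups, 979 were higher (37.5%) and 1011 lower (38.7%) in K. lactis at an edgeR quasi-likelihood adjusted p below 0.05. Requiring also a change of at least 2-fold left 389 higher (14.9%) and 302 lower (11.6%), and 120 were higher and 62 lower by at least 4-fold under the same p. All K. lactis libraries lay above all S. cerevisiae libraries for 37.4% of orthogroups and below them for 38%. The median log2 fold change, K. lactis over S. cerevisiae, was -0.00, with quartiles at -0.56 and 0.59. Since most orthogroups differed by p alone, gene groups are read below against these shares.

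**Figure D1:**
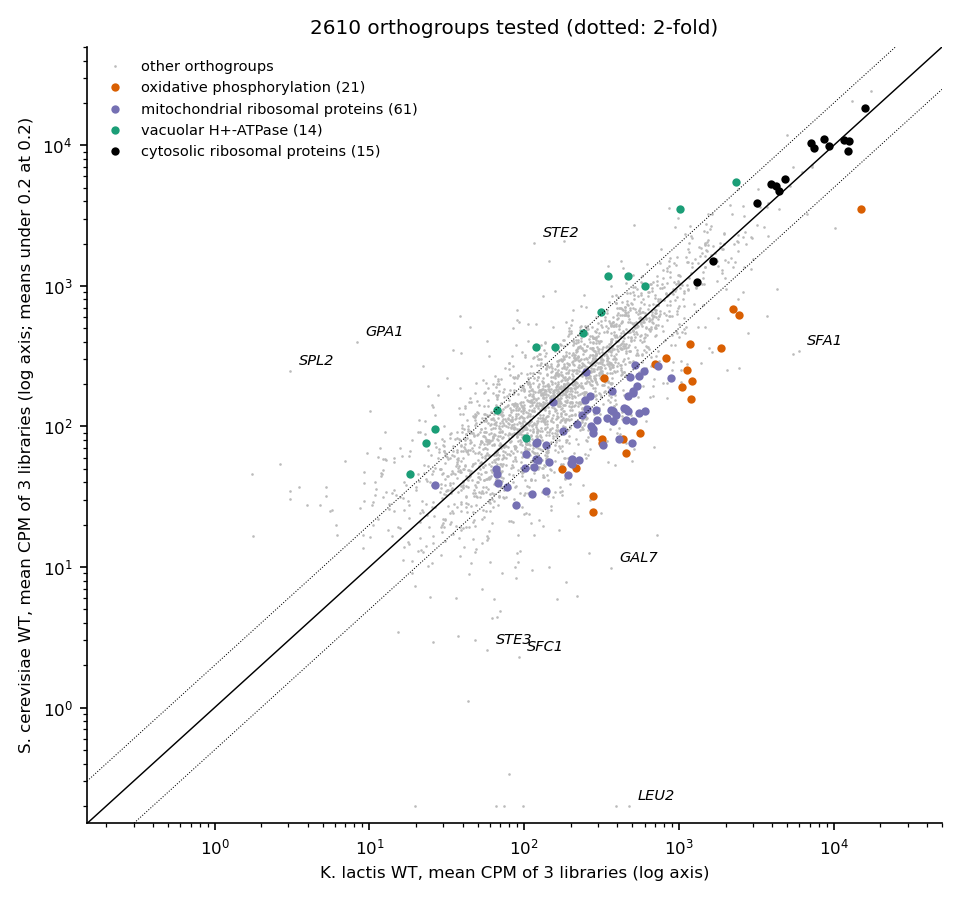
Mean CPM of each of the 2610 orthogroups in wild type K. lactis (x axis, log scale) and wild type S. cerevisiae (y axis, log scale), 3 libraries each, with the members of selected gene groups in colour. Oxidative phosphorylation and mitochondrial ribosomal genes sit on the K. lactis side of the diagonal, vacuolar ATPase genes on the S. cerevisiae side, and cytosolic ribosomal protein genes close to it.

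Promoters of S. cerevisiae are shown for 4 genes, 1 from each of 4 lists: COX7 of oxidative phosphorylation, MRPL24 of the mitochondrial large subunit and VMA22 of the vacuolar ATPase, whose lists had medians beyond 2-fold, and TSR2 of ribosome biogenesis, whose list had a median well within 2-fold. Each is the named member of its list with the largest change in the direction of the list's median. They were read from the RefSeq R64 genome by systematic gene name, 5′ to 3′ along the gene, as 250 bases before and 50 bases from the annotated start codon on. Capitals mark matches, on either strand, to 3 motifs: CCAAT, called the Hap core here, is bound by the Hap complex, an activator of respiratory genes. AATTTT, called the growth element here, is common in promoters of growth genes. GATGAG is the core of the PAC element of ribosome biogenesis genes. The COX7 window lies at chrXIII:779078-779377 on the minus strand, that of MRPL24 at chrXIII:649786-650085 on the plus strand, that of TSR2 at chrXII:1006128-1006427 on the plus strand, and that of VMA22 at chrVIII:220475-220774 on the plus strand.
COX7: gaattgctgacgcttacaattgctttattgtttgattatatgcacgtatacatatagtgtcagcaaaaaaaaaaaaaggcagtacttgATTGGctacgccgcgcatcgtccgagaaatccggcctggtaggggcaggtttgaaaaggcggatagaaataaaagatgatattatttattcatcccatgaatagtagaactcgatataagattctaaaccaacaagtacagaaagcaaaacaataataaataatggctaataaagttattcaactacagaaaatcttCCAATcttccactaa
MRPL24: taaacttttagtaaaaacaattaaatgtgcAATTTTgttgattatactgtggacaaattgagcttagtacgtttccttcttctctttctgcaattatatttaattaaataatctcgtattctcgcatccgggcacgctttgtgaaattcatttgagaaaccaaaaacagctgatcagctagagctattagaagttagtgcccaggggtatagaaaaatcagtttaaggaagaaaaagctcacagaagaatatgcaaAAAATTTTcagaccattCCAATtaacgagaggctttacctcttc
TSR2: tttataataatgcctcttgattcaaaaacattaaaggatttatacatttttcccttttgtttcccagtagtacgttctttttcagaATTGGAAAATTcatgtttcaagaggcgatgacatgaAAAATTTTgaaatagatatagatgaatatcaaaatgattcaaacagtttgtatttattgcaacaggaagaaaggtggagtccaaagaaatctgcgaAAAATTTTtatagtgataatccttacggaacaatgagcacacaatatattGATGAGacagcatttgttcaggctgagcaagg
VMA22: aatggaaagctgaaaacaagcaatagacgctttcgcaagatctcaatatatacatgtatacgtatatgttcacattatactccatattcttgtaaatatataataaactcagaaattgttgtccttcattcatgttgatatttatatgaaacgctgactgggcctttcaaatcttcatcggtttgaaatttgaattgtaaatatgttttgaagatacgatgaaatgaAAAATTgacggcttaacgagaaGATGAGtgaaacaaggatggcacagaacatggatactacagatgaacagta

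The COX7 window holds the Hap core on the opposite strand 162 bases before the start codon and once more at base 36 of the coding sequence. MRPL24 has the growth element 220 bases before the start and an overlapping pair of matches to it, 1 on each strand, just inside the coding sequence, with a Hap core at base 24. In TSR2, the growth element occurs 5 times before the start, with 2 overlapping pairs, a Hap core lies 164 bases before the start and the PAC core is at base 19 of the coding sequence. VMA22 has the growth element on the opposite strand 23 bases before the start and a PAC core that begins 1 base before the start codon and runs across it. Among all 2610 promoters of this length, 44.6% held the Hap core, 55.7% the growth element and 22.4% the PAC core. The Hap core was in 18 of 21 oxidative phosphorylation promoters (85.7%) and in 2 of 14 vacuolar ATPase promoters (14.3%). Other lists lay nearer the 44.6% of all promoters, whichever way their genes differed between the species. The share was 50% for respiratory chain assembly, 54.5% for the TCA list and 45% for mitochondrial translation. It was 35.9% and 59.1% for the large and small mitochondrial ribosomal subunits, 51.5% for the proteasome and 50% for cytosolic tRNA synthetases. The growth element and the PAC core were in 98.5% and 92.5% of the 67 promoters for small subunit biogenesis and in 98.3% and 88.3% of the 60 for large subunit biogenesis. Of the mitochondrial ribosomal promoters, 18 of 39 for the large subunit (46.2%) and 6 of 22 for the small subunit (27.3%) held the growth element. Matches describe the letters of the S. cerevisiae windows, and no K. lactis sequence was read.

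Genes of oxidative phosphorylation, which encode the electron transport chain and the ATP synthase, rose as a block in K. lactis. All 21 tested of 53 listed were higher, against 37.5% of all orthogroups, and 20 were higher by at least 2-fold, against 14.9%; the median log2 fold change was 2.19. Of the counts over the single-copy orthogroups, they took 3.21% ± 0.0208 in K. lactis and 0.773% ± 0.0131 in S. cerevisiae (SD, n = 3 each). An exact two-sided permutation test of this share gave a p of 0.10, the smallest that 3 against 3 libraries allow.

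COX7 (YMR256C, chrXIII:778945-779127), a small subunit of cytochrome c oxidase, had 247, 288 and 300.1 CPM in K. lactis, against 13.8, 32.6 and 26.9 CPM in S. cerevisiae. The lowest K. lactis library stood well above the highest S. cerevisiae library, and the log2 fold change was 3.37 ± 0.15 (± standard error here and below; edgeR adjusted p = 2.1e-31). QCR9, a subunit of the cytochrome bc1 complex, had 266, 297 and 269 CPM in K. lactis and 36.9, 30.5 and 28.0 CPM in S. cerevisiae, a log2 fold change of 3.16 ± 0.14. CYT1, which encodes cytochrome c1, showed the same separation at higher counts. It had 1946, 1802.5 and 1868 CPM in K. lactis, against 352, 404 and 333 CPM in S. cerevisiae, a log2 fold change of 2.35 ± 0.06. ATP2 encodes the catalytic beta subunit of the ATP synthase. It had 15163, 14575.5 and 15063 CPM in K. lactis, against 3459.9, 3389 and 3665 CPM in S. cerevisiae, a log2 fold change of 2.09 ± 0.04. The libraries of the species did not overlap for any of these genes, which held for 75.5% of all orthogroups. Other oxidase subunits moved as far, with log2 fold changes of 2.88 for COX12, 2.89 for COX13 and 2.59 for COX4. The lowest member was GUT2, the mitochondrial glycerol 3-phosphate dehydrogenase, which feeds electrons into the chain, at 0.56 ± 0.09.

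Factors that build the respiratory chain, with the heme and ubiquinone pathways, rose less evenly, with a median of 0.86. Of 50 tested, 36 were higher and 4 lower, against 37.5% and 38.7% of all orthogroups. By at least 2-fold, 23 were higher, against 14.9%. PET100, a chaperone of cytochrome c oxidase assembly, had 194, 152 and 159 CPM in K. lactis, against 11.5, 27.5 and 16.4 CPM in S. cerevisiae, a log2 fold change of 3.04 ± 0.19. SHY1, another oxidase assembly factor, had 323, 364 and 363 CPM in K. lactis, against 62.2, 56.0 and 50.2 CPM in S. cerevisiae, a log2 fold change of 2.67 ± 0.12. COA4, also an oxidase assembly factor, went the other way. It had 12.2, 15.3 and 9.13 CPM in K. lactis, against 50.7, 48.9 and 47.9 CPM in S. cerevisiae, a log2 fold change of -1.98 ± 0.28.

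The TCA cycle was split from pyruvate dehydrogenase, the enzyme complex that supplies it with acetyl-CoA. Of 11 tested genes of the combined list, 8 were higher and 3 lower, against 37.5% and 38.7% of all orthogroups. The 3 lower ones were PDA1, PDB1 and LAT1, the subunits of pyruvate dehydrogenase that were tested. KGD1, of the alpha-ketoglutarate dehydrogenase complex, had 3719.9, 3540.0 and 3826 CPM in K. lactis, against 624, 580.1 and 625 CPM in S. cerevisiae, a log2 fold change of 2.61 ± 0.05. IDH1, of the NAD-dependent isocitrate dehydrogenase, had 2767, 2719.7 and 2919.7 CPM in K. lactis, against 481, 471 and 438 CPM in S. cerevisiae, a log2 fold change of 2.60 ± 0.06. ACO1, aconitase, had 10245, 9812.5 and 10571 CPM in K. lactis, against 2647, 2497 and 2534 CPM in S. cerevisiae, a log2 fold change of 2.00 ± 0.04. The cycle enzymes KGD2, MDH1 and FUM1 followed at 1.60, 1.58 and 1.52. PDA1, the E1 alpha subunit of pyruvate dehydrogenase, had 1234, 1106 and 1208 CPM in K. lactis, against 2771, 2669.6 and 2588 CPM in S. cerevisiae. Every K. lactis library was below every S. cerevisiae library for PDA1, whose log2 fold change was -1.18 ± 0.05, beside -0.81 for PDB1 and -0.41 for LAT1.

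Genes for carbon from acetate and other non-fermentable sources were also higher, with a median of 2.44. Of 8 tested, 6 were higher, each by at least 2-fold, against 14.9% of all orthogroups, and 0 were lower. Only 8 of 28 listed names were tested, so enzymes such as those of the glyoxylate shunt itself are not among them. SFC1, the succinate-fumarate carrier of the mitochondrial membrane, had 92.3, 86.6 and 97.8 CPM in K. lactis, against 2.30, 1.02 and 3.50 CPM in S. cerevisiae, a log2 fold change of 5.29 ± 0.34. PCK1, phosphoenolpyruvate carboxykinase of gluconeogenesis, had 190.0, 138 and 162 CPM in K. lactis, against 4.61, 6.11 and 7.01 CPM in S. cerevisiae, a log2 fold change of 4.69 ± 0.24. Both genes were close to silent in S. cerevisiae. CAT8, an activator of gluconeogenic genes, had 460.1, 446 and 460.5 CPM in K. lactis, against 57.6, 93.6 and 78.3 CPM in S. cerevisiae, a log2 fold change of 2.49 ± 0.11. It belongs to another list, respiratory and carbon regulators, where 3 of 11 genes were higher and 5 lower, with a median of -0.04. Among all orthogroups, 37.5% were higher and 38.7% lower.

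Glycolysis could be followed in 7 of 36 listed genes. Of these 7, 3 were higher and 4 lower, against 37.5% and 38.7% of all orthogroups, with a median of -0.48. TPI1, triose phosphate isomerase, had 5042, 5272.5 and 4707 CPM in K. lactis, against 12135, 11882 and 11632 CPM in S. cerevisiae, a log2 fold change of -1.25 ± 0.04. PGK1, phosphoglycerate kinase, had 17807, 17884 and 16179.7 CPM in K. lactis, against 24028, 24106 and 24299.9 CPM in S. cerevisiae, a log2 fold change of -0.48 ± 0.03. Both enzymes were thus lower in every K. lactis library. The glycolytic activator TYE7 was higher, with 461, 427 and 404 CPM in K. lactis, against 122, 117 and 118 CPM in S. cerevisiae, a log2 fold change of 1.86 ± 0.10. ZWF1, which opens the pentose phosphate pathway, had 1666.5, 1884 and 1722 CPM in K. lactis, against 1175, 965 and 1132 CPM in S. cerevisiae. No library crossed over, and its log2 fold change was 0.71 ± 0.06.

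The galactose pathway had 4 genes in the table. GAL7, galactose 1-phosphate uridylyltransferase, had 392, 350.3 and 348 CPM in K. lactis, against 9.21, 12.2 and 8.18 CPM in S. cerevisiae, a log2 fold change of 5.14 ± 0.17. Its activator GAL4 had 368, 354 and 436 CPM in K. lactis, against 57.6, 55.0 and 47.9 CPM in S. cerevisiae, a log2 fold change of 2.87 ± 0.12. GAL80, the repressor of Gal4, had 96.4, 79.0 and 65.2 CPM in K. lactis, against 290.2, 271 and 283 CPM in S. cerevisiae, a log2 fold change of -1.80 ± 0.12. The activator was thus higher and the repressor lower in K. lactis. Libraries did not overlap for either, as for 75.5% of all orthogroups. SNF1, the kinase that relieves glucose repression, was at -0.04 with an edgeR adjusted p of 0.65.

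Mitochondrial ribosomal proteins rose almost throughout. Of 39 tested large subunit genes, 38 were higher and 0 lower, 30 by at least 2-fold, with a median of 1.49. Of 22 tested small subunit genes, 20 were higher and 0 lower, 15 by at least 2-fold, with a median of 1.34. Of all orthogroups, 37.5% were higher, 38.7% lower and 14.9% higher by at least 2-fold. Of the counts over the single-copy orthogroups, large subunit genes took 1.10% ± 0.0233 in K. lactis and 0.390% ± 0.00969 in S. cerevisiae. Small subunit genes took 0.760% ± 0.0129 and 0.299% ± 0.0123 of the same counts (SD, n = 3 each). MRPL24 (YMR193W, chrXIII:650036-650812) had 483, 512 and 498 CPM in K. lactis, against 115, 62.1 and 51.4 CPM in S. cerevisiae, a log2 fold change of 2.86 ± 0.12. MRPL4 had 489, 506 and 529.7 CPM in K. lactis, against 117.5, 112 and 95.8 CPM in S. cerevisiae, a log2 fold change of 2.25 ± 0.10. Of the small subunit, MRPS28 had 562, 596 and 641 CPM in K. lactis, against 134, 132 and 118 CPM in S. cerevisiae, a log2 fold change of 2.24 ± 0.09. Their libraries did not overlap between species, as for 75.5% of all orthogroups. The members that missed the threshold were IMG1 at 0.02, MRPS12 at -0.00 and MRX11 at -0.39.

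The rest of mitochondrial translation moved in the same direction, with 17 of 20 genes higher, 2 lower and a median of 1.02. MEF1, a mitochondrial elongation factor, had 1637, 1581 and 1709 CPM in K. lactis, against 332, 341 and 345 CPM in S. cerevisiae, a log2 fold change of 2.27 ± 0.06. Mitochondrial protein import, which brings in proteins made in the cytosol, rose less, with 16 of 24 higher, 4 lower and a median of 0.45. The shares of all orthogroups were 37.5% higher and 38.7% lower. TIM17, a subunit of the inner membrane translocase, had 375, 367 and 326 CPM in K. lactis, against 161, 149.6 and 137 CPM in S. cerevisiae, a log2 fold change of 1.27 ± 0.10. MIA40, the oxidoreductase of the intermembrane space, had 1128, 1055 and 1079 CPM in K. lactis, against 507, 446 and 432 CPM in S. cerevisiae, a log2 fold change of 1.26 ± 0.07. By median, import genes thus differed least among the mitochondrial lists and oxidative phosphorylation genes most.

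**Figure D2:**
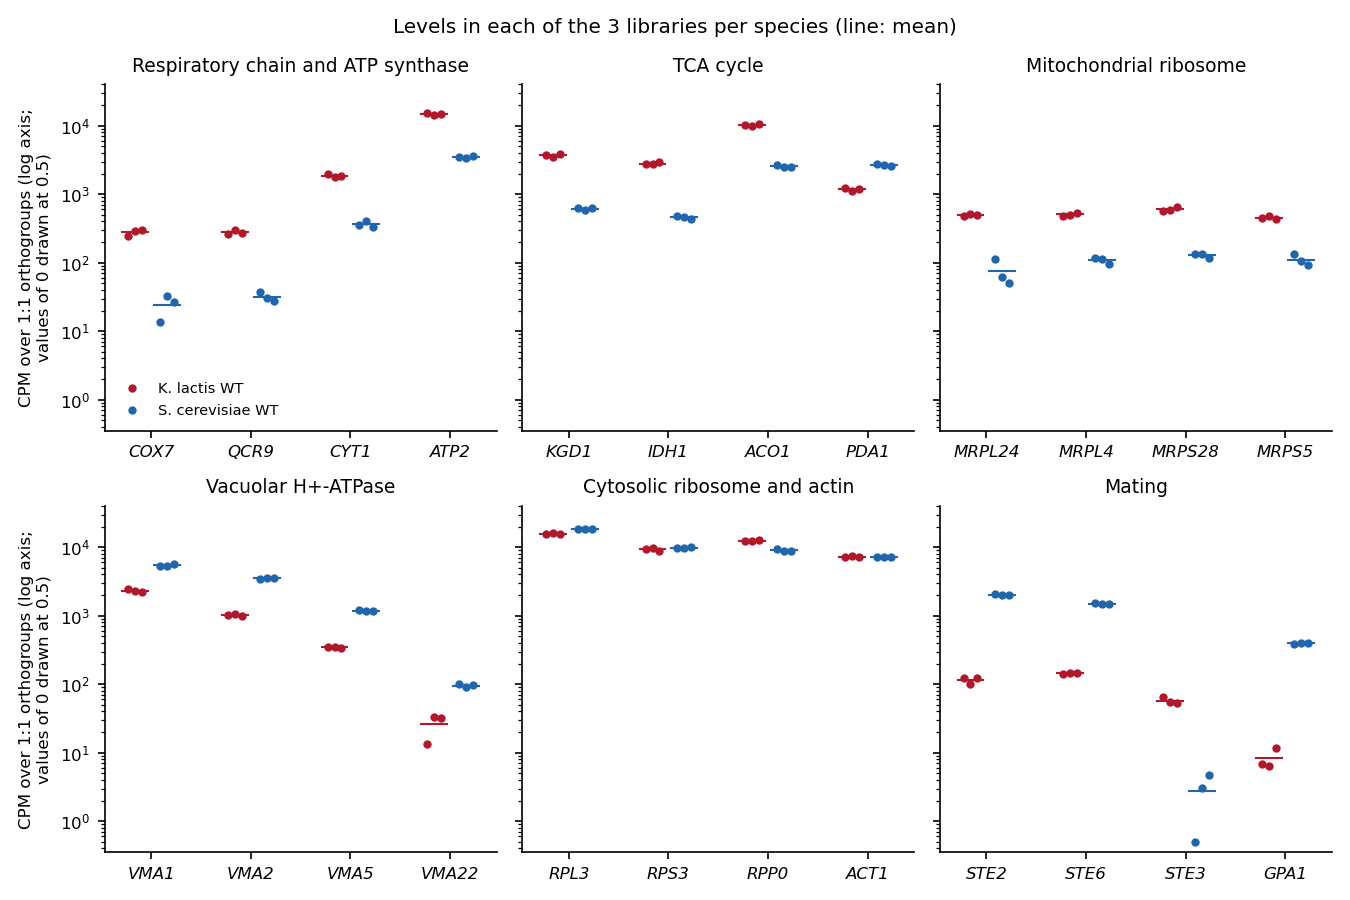
CPM in each library (log scale; K. lactis left, S. cerevisiae right; points are libraries A to C) for genes of 6 groups. COX7, KGD1 and MRPL24 lie higher in K. lactis and VMA2 and STE2 lower, without overlap, while ACT1 lies at the same height in both.

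Cytosolic ribosomal protein genes, by contrast, stayed within 2-fold. Of 15 tested, 5 were higher and 10 lower, against 37.5% and 38.7% of all orthogroups. Past 2-fold there were 0, and the median was -0.23. RPL3 had 15717, 16011 and 15786 CPM in K. lactis, against 18619.5, 18505 and 18532 CPM in S. cerevisiae, a log2 fold change of -0.23 ± 0.03. RPP0, of the ribosomal stalk, had 12361, 12353 and 12569.9 CPM in K. lactis, against 9447, 8928 and 8907 CPM in S. cerevisiae, a log2 fold change of 0.45 ± 0.04. Neither gene overlapped between species, yet both differences were small beside those of mitochondrial ribosomal genes. RPS3 was at -0.08 ± 0.04, and its call at an adjusted p of 0.037 was lost under 9 of the alternatives tried and its sign not kept under another.

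Ribosome biogenesis genes were slightly higher. Of 67 genes of the small subunit pathway (median 0.29), 41 were higher and 4 lower, against 37.5% and 38.7% of all orthogroups. Of 60 genes of the large subunit pathway, 34 were higher and 10 lower, with a median of 0.23. At 2-fold, 4 and 2 of them passed, shares below the 14.9% of all orthogroups. TSR2 (YLR435W, chrXII:1006378-1006995), an escort of a small subunit protein, had 375, 420.4 and 330.1 CPM in K. lactis, against 99.0, 102 and 109 CPM in S. cerevisiae, a log2 fold change of 1.85 ± 0.10. NOP9, a small subunit assembly factor, had 1030.1, 1092 and 946 CPM in K. lactis, against 306, 277 and 294 CPM in S. cerevisiae, a log2 fold change of 1.82 ± 0.07. These were the 2 largest rises of the small subunit list, whose quartiles were 0.01 and 0.55. The nucleolar proteins NOP1 and NOP56 were at 0.15 ± 0.05 and 0.05 ± 0.04. RNA polymerases I and III had 15 genes higher and 10 lower of 33, against 37.5% and 38.7% of all orthogroups, with a median of 0.07. The RNA polymerase I subunit RPA190 was higher at 0.44 ± 0.04. Cytosolic tRNA synthetases were lower in 15 of 18 cases and higher in 1, against 38.7% and 37.5% of all orthogroups. Their median was -0.59. CRS1, the cysteinyl-tRNA synthetase, had 642, 583 and 625 CPM in K. lactis, against 1527, 1376 and 1399.6 CPM in S. cerevisiae, a log2 fold change of -1.21 ± 0.06.

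**Figure D3:**
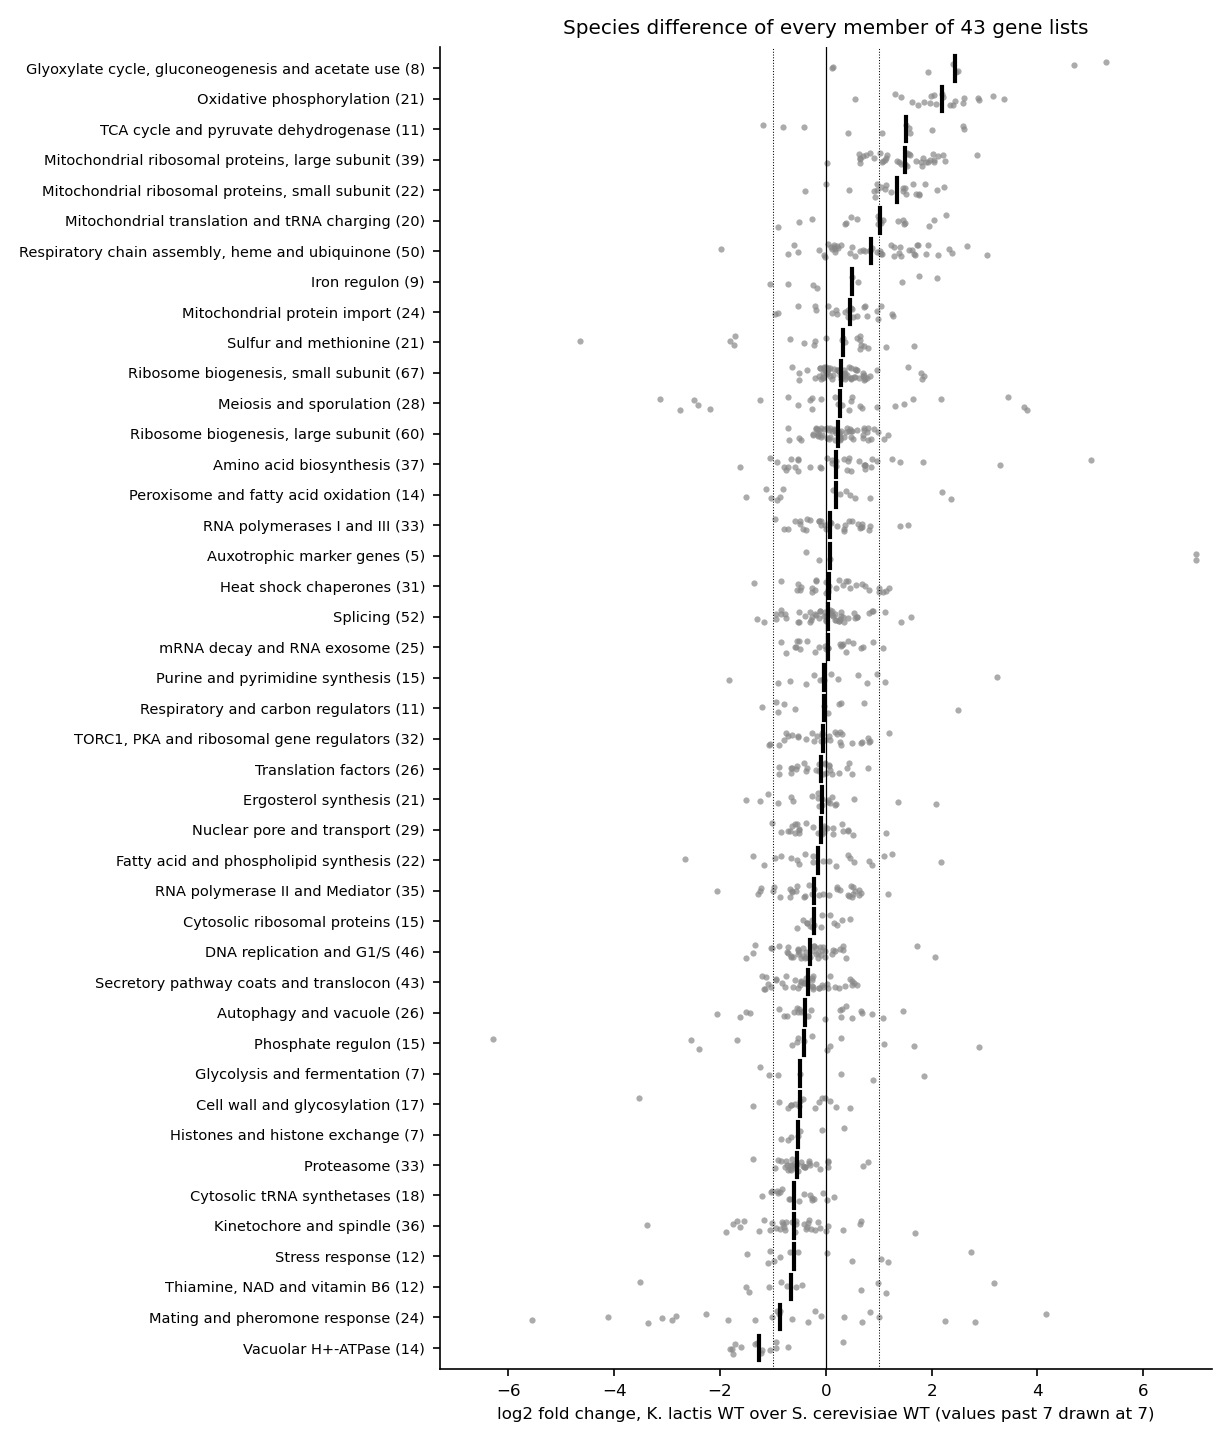
Log2 fold change of K. lactis over S. cerevisiae for each tested member (dots) of the 43 gene lists with at least 5 tested members, with the list median as a bar. Mitochondrial lists reach medians between 0.45 and 2.19, cytosolic ribosomal proteins stay at -0.23, and the vacuolar ATPase has a median of -1.26; values past 7 are drawn at 7.

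The vacuolar H+-ATPase, the proton pump that acidifies the vacuole, had the lowest median of the 43 lists, -1.26. Of 14 tested genes, 13 were lower, against 38.7% of all orthogroups, and 10 were lower by at least 2-fold, against 11.6%. Of the counts over the single-copy orthogroups, its genes took 0.584% ± 0.0159 in K. lactis and 1.46% ± 0.00838 in S. cerevisiae (SD, n = 3 each). VMA2, a subunit of the catalytic head, had 1009.7, 1048 and 1007 CPM in K. lactis, against 3485, 3510.3 and 3512 CPM in S. cerevisiae, a log2 fold change of -1.78 ± 0.05. VMA1, the catalytic subunit, had 2496, 2262 and 2243 CPM in K. lactis, against 5388, 5364 and 5599.8 CPM in S. cerevisiae, a log2 fold change of -1.22 ± 0.04. Both were lower in every K. lactis library. VMA22, which helps assemble the pump in the endoplasmic reticulum, had 13.6, 33.1 and 32.6 CPM in K. lactis, against 99.0, 89.6 and 98.1 CPM in S. cerevisiae, a log2 fold change of -1.82 ± 0.20. The exception was RAV2, of the complex that reassembles the pump, at 0.32 ± 0.14.

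The autophagy and vacuole list was mixed, with 9 higher and 13 lower of 26, against 37.5% and 38.7% of all orthogroups. Its median was -0.39. Its 2 largest falls were in genes of vacuolar proteases. PEP4, proteinase A, had 436, 422 and 442 CPM in K. lactis, against 1341, 1306 and 1353 CPM in S. cerevisiae, a log2 fold change of -1.62 ± 0.06. APE3, an aminopeptidase, had 912, 831 and 827 CPM in K. lactis, against 3575, 3493 and 3656 CPM in S. cerevisiae, a log2 fold change of -2.06 ± 0.05. Proteasome genes were lower in 26 of 33 cases and higher in 2, against 38.7% and 37.5% of all orthogroups. Their median was -0.55, although 1 gene passed 2-fold. That gene, RPN10, a ubiquitin receptor, had 195, 189.8 and 214 CPM in K. lactis, against 580.5, 498 and 503.5 CPM in S. cerevisiae, a log2 fold change of -1.38 ± 0.09. Secretory pathway genes were lower in 27 of 43 cases and higher in 7, against the same 38.7% and 37.5%. Their median was -0.33. Cell wall genes were lower in 12 of 17 and higher in 2, against 38.7% and 37.5% of all orthogroups. CIS3, a cell wall glycoprotein, stood far from the others. It had 194, 173 and 173.5 CPM in K. lactis, against 2032, 2097 and 2118 CPM in S. cerevisiae, a log2 fold change of -3.53 ± 0.07.

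Mating genes showed wide differences in both directions. Of 24 tested, 6 were higher and 15 lower, against 37.5% and 38.7% of all orthogroups, with a median of -0.87. By at least 2-fold, 10 were lower, against 11.6%, and 4 higher, against 14.9%. STE2, the receptor for alpha-factor that a-type S. cerevisiae cells make, had 123.5, 101 and 125 CPM in K. lactis, against 2092, 2006 and 1978 CPM in S. cerevisiae, a log2 fold change of -4.12 ± 0.08. STE6, the a-factor exporter, had 141, 146.5 and 146 CPM in K. lactis, against 1525, 1459.5 and 1497 CPM in S. cerevisiae, a log2 fold change of -3.36 ± 0.08. STE3, the receptor for a-factor that alpha-type cells make, had 65.1, 54.8 and 53.5 CPM in K. lactis, against 0, 3.05 and 4.67 CPM in S. cerevisiae, a log2 fold change of 4.16 ± 0.37. In S. cerevisiae, then, the a-type genes were high and STE3 near 0, while K. lactis had moderate levels of both kinds. ASG7, another a-type gene, was lower at -1.84, and the other 8 of 12 listed mating type markers were not among the counted members. GPA1, the G protein alpha subunit coupled to the receptors, had 6.79, 6.37 and 11.7 CPM in K. lactis, against 380.1, 405 and 404 CPM in S. cerevisiae, a log2 fold change of -5.56 ± 0.17. Its beta partner STE4 and its regulator SST2 were lower by less, at -2.83 and -2.90. Mating type is not given in the labels, and its part in these differences was not tested.

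Amino acid synthesis had a median of 0.20, with 21 of 37 higher and 12 lower, against 37.5% and 38.7% of all orthogroups. Its 2 largest rises were in genes of arginine synthesis. ARG3, ornithine carbamoyltransferase, had 221, 213 and 220.5 CPM in K. lactis, against 4.61, 8.14 and 5.84 CPM in S. cerevisiae, a log2 fold change of 5.01 ± 0.21. ARG1, argininosuccinate synthetase, had 703, 715 and 657.5 CPM in K. lactis, against 80.6, 72.3 and 61.9 CPM in S. cerevisiae, a log2 fold change of 3.30 ± 0.10. Both lay far above S. cerevisiae in every library. In the branched-chain pathway, LEU1, isopropylmalate isomerase, had 1039.6, 987 and 939 CPM in K. lactis, against 3216, 2878 and 3050.5 CPM in S. cerevisiae, a log2 fold change of -1.62 ± 0.05. The next 3 genes were named after their values were seen. CAR2, the ornithine transaminase of arginine breakdown, had 5427, 5511 and 5512 CPM in K. lactis, against 318, 351 and 314 CPM in S. cerevisiae, a log2 fold change of 4.05 ± 0.06. PUT1, the proline oxidase of proline breakdown, had 263, 285 and 243 CPM in K. lactis, against 9.21, 12.2 and 16.4 CPM in S. cerevisiae, a log2 fold change of 4.30 ± 0.18. SFA1, an alcohol and formaldehyde dehydrogenase, had 5998, 6038 and 5764 CPM in K. lactis, against 357, 324 and 347 CPM in S. cerevisiae, a log2 fold change of 4.13 ± 0.05.

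The phosphate group held the largest fall of the comparison. SPL2, a small protein of the phosphate response, had 4.07, 2.55 and 2.61 CPM in K. lactis, against 219, 262 and 258 CPM in S. cerevisiae, a log2 fold change of -6.29 ± 0.24. VTC1, of the polyphosphate polymerase complex in the vacuole, had 153, 172 and 149 CPM in K. lactis, against 868, 969.9 and 897 CPM in S. cerevisiae, a log2 fold change of -2.54 ± 0.08, and its partner VTC4 was at -2.40. GIT1, a transporter of glycerophosphoinositol, rose, with 115, 115 and 116 CPM in K. lactis, against 23.0, 9.16 and 18.7 CPM in S. cerevisiae, a log2 fold change of 2.89 ± 0.21. In the list, 4 of 15 genes were higher and 9 lower, against 37.5% and 38.7% of all orthogroups. Of 36 kinetochore and spindle genes, 26 were lower and 4 higher, against 38.7% and 37.5% of all orthogroups, with a median of -0.60. Of 46 replication genes, 27 were lower and 5 higher, with a median of -0.30. Splicing genes did not share this lean, with 12 higher and 14 lower of 52. DAD3, of the ring complex that ties kinetochores to microtubules, had 4.07, 1.27 and 3.91 CPM in K. lactis, against 39.2, 30.5 and 33.9 CPM in S. cerevisiae, a log2 fold change of -3.38 ± 0.43. CDC6, which loads the replicative helicase, rose against its list, with 314, 280.2 and 342 CPM in K. lactis, against 92.1, 71.2 and 67.8 CPM in S. cerevisiae, a log2 fold change of 2.07 ± 0.12.

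Of the 10 largest rises, 5 were genes with 0 counts in all 3 S. cerevisiae libraries, so their fold is a lower bound, computed against 3 counts over the group. LEU2 (YCL018W, chrIII:91324-92418), isopropylmalate dehydrogenase of leucine synthesis, had 528, 446 and 458 CPM in K. lactis, against 0, 0 and 0 CPM in S. cerevisiae, at least 361-fold higher. MET17, which incorporates sulfide into homocysteine, had 107, 104.5 and 84.8 CPM in K. lactis, against 0, 0 and 0 CPM in S. cerevisiae, at least 74.8-fold higher. LEU2 was at 0 in the delta sfp1 and HA-tagged S. cerevisiae libraries as well, and MET17 averaged 0 CPM in delta sfp1 and 0.481 CPM in HA-tagged libraries. By contrast, HIS3 of histidine synthesis and LYS2 of lysine synthesis were expressed in both species, at -0.13 ± 0.11 and 0.07 ± 0.07. LEU2 and MET17 were listed here as auxotrophic markers, genes whose loss makes a strain need a nutrient. The labels name no strain, and whether the S. cerevisiae strain carries these genes was not tested. Their folds therefore cannot be read as a difference in expression of a gene present in both. The uncharacterised genes YFR057W and YGL262W were at least 297-fold and 55.6-fold higher, and OSW1, a spore wall gene, at least 49.99-fold higher. SPR3, a septin of sporulation, had 182 counts in K. lactis and 1 in S. cerevisiae, a ratio of 181 with a 95% counting interval of 32.0 to 7178. YDL218W, also uncharacterised, had 769.5, 605 and 775 CPM in K. lactis, against 20.7, 13.2 and 16.4 CPM in S. cerevisiae, a log2 fold change of 5.48 ± 0.15; SFC1, GAL7 and ARG3 complete the 10.

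Among the 10 largest falls, beside SPL2, GPA1, STE2 and CIS3, were MET14, EST3, ARA1, MUM2, SIR4 and PNC1. SIR4, a silencing protein of telomeres and mating loci, had 16.3, 22.9 and 27.4 CPM in K. lactis, against 242, 260.5 and 305 CPM in S. cerevisiae, a log2 fold change of -3.61 ± 0.16. PNC1, the nicotinamidase of NAD salvage, had 57.0, 51.0 and 26.1 CPM in K. lactis, against 498, 526 and 506 CPM in S. cerevisiae, a log2 fold change of -3.52 ± 0.12. All 10 largest falls were picked by a rule that required no overlap of libraries. ARA1, an arabinose dehydrogenase, had 27.1, 52.2 and 35.2 CPM in K. lactis, against 663, 544.5 and 614.5 CPM in S. cerevisiae, a log2 fold change of -3.95 ± 0.12. MET14, of sulfate assimilation, and EST3, of telomerase, were close to 0 in K. lactis, at means of 1.75 ± 1.52 and 2.64 ± 1.39 CPM, against 46.0 ± 7.92 and 54.1 ± 12.4 CPM in S. cerevisiae (SD, n = 3 each).

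Regulators of growth and respiration were measured as well. SFP1, an activator of ribosome biogenesis genes, had 475, 408 and 438 CPM in K. lactis, against 223, 262 and 242 CPM in S. cerevisiae, a log2 fold change of 0.84 ± 0.08. HAP4, the activating subunit of the Hap complex in S. cerevisiae, was lower while respiratory genes were higher: it had 130.3, 138 and 153 CPM in K. lactis, against 290.2, 269.7 and 262 CPM in S. cerevisiae, a log2 fold change of -0.95 ± 0.10. Of its DNA-binding partners, HAP5 was at 0.72 ± 0.19 and HAP2 at 0.24 ± 0.20, with an adjusted p of 0.26 for HAP2, while HAP5 lost its call against the HA-tagged libraries. HAP1, a heme-dependent activator, had 503.5, 413 and 453 CPM in K. lactis, against 1053, 1036 and 1051.5 CPM in S. cerevisiae, a log2 fold change of -1.20 ± 0.07. FHL1 and RAP1, which bind ribosomal protein promoters in S. cerevisiae, were at -0.09 ± 0.09 and -0.26 ± 0.08. ACT1, actin, had 7248, 7469 and 7101 CPM in K. lactis, against 7136, 7103 and 7308 CPM in S. cerevisiae; its libraries overlapped, and its log2 fold change was 0.02 ± 0.04 (edgeR adjusted p = 0.67).

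The same species difference was measured in cells without SFP1, in 6 libraries that the wild type comparison did not use. Here 413 of 2628 orthogroups (15.7%) were higher and 336 (12.8%) lower by at least 2-fold in K. lactis delta sfp1 over S. cerevisiae delta sfp1; scaled by library size alone, the counts were 371 higher and 372 lower, so the excess of higher calls depends on the scaling. Oxidative phosphorylation kept a median of 2.08 with 18 of 21 higher by at least 2-fold, and the TCA list a median of 1.36 with 8 of 11. The mitochondrial ribosome did not: large subunit genes had a median of 0.23 with 5 of 39 higher and 2 lower by at least 2-fold, and small subunit genes a median of 0.05 with 0 of 22 higher and 1 lower. The vacuolar ATPase was at -0.55, with 3 of 14 lower by at least 2-fold, and the cytosolic ribosomal proteins at -0.22. These list medians were not rerun under another scaling.

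Whether the species difference itself depended on SFP1 was tested by the interaction term, which was called higher for 25.4% and lower for 27.2% of the 2628 orthogroups. It was lower for 34 of 39 large subunit and 21 of 22 small subunit mitochondrial ribosomal genes, and higher for 1 and 0. MRPS5, a small subunit protein, had 453, 479 and 434 CPM in wild type K. lactis, against 134, 105 and 92.3 CPM in wild type S. cerevisiae. It averaged 175 ± 17.4 CPM in K. lactis delta sfp1 and 169 ± 9.70 CPM in S. cerevisiae delta sfp1 (SD, n = 3 each; CPM of deletion cells are scaled over all 15 libraries of the 2 species, those of wild type cells over their 6, while each test uses a single scaling). The deletion thus came with a fall in K. lactis, by 1.45 on the log2 scale, and a rise of 0.61 in S. cerevisiae, and the interaction was -2.06 ± 0.15 (edgeR adjusted p = 1.2e-19). MRPL24 kept its difference, at 2.93 ± 0.13 between the deletion strains, with an interaction of 0.07 ± 0.20 (edgeR adjusted p = 0.78). For the vacuolar ATPase the interaction was higher in 11 of 14 genes and lower in 0. For oxidative phosphorylation it was lower in 8 of 21 and higher in 1, and ATP2 moved to 7182 ± 70.7 CPM in K. lactis delta sfp1, against 3313 ± 181 CPM in S. cerevisiae delta sfp1, an interaction of -0.98 ± 0.09. The interaction shares the wild type libraries with the first comparison, so the deletion values are the ones measured apart from it.

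**Figure D4:**
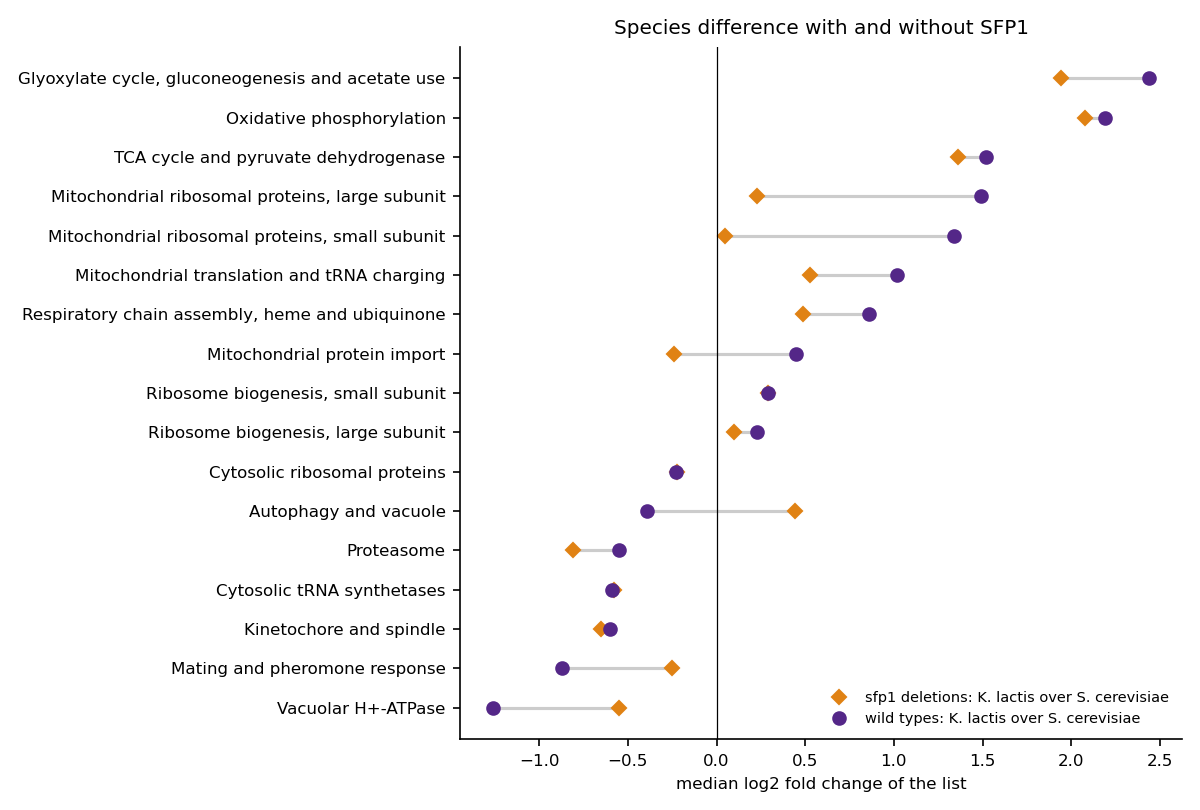
Median log2 fold change of K. lactis over S. cerevisiae of each gene list in delta sfp1 cells, set against the same median in wild type cells. Oxidative phosphorylation stays high in both (2.08 and 2.19), while the mitochondrial ribosomal lists drop to 0.23 and 0.05 in delta sfp1 cells, against 1.49 and 1.34 in wild type cells.

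To show whether these levels set K. lactis apart from other budding yeasts, its libraries were also compared with wild type S. paradoxus, C. glabrata and N. castellii on 2176 tested orthogroups with 1 counted gene in each of the 5 species. The comparisons share the K. lactis libraries, so their values are given side by side. At 2-fold, K. lactis was higher than S. cerevisiae for 14.3% of orthogroups, than S. paradoxus for 14.8%, than C. glabrata for 18.5% and than N. castellii for 16%. Oxidative phosphorylation genes had medians of 2.13, 1.73, 2.05 and 2.60 in that order, with 17, 16, 17 and 18 of 18 genes higher by at least 2-fold. Mitochondrial large subunit genes had medians of 1.54, 1.04, 1.11 and 1.28, and small subunit genes 1.45, 1.06, 1.37 and 1.19. K. lactis was thus above each of the 4 other yeasts in these lists. ATP2 averaged 17722 ± 273 CPM in K. lactis, 4171 ± 175 in S. cerevisiae, 3475 ± 208 in S. paradoxus, 3719 ± 96.9 in C. glabrata and 1875 ± 104 in N. castellii (SD, n = 3 each). CAT8 averaged 541 ± 6.99 CPM in K. lactis, 91.0 ± 21.4 in S. cerevisiae, 42.9 ± 6.28 in S. paradoxus, 23.6 ± 11.3 in C. glabrata and 8.99 ± 0.831 in N. castellii. The list for carbon from acetate and other non-fermentable sources was less uniform. Its medians were 2.43 over S. cerevisiae, 2.20 over S. paradoxus, 1.32 over C. glabrata and 0.96 over N. castellii. By at least 2-fold, 5, 5, 3 and 3 of 6 genes were higher in that order, and 2 were lower over N. castellii.

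Other lists divided the yeasts differently. The vacuolar ATPase median was -1.28 over S. cerevisiae, -0.83 over S. paradoxus, 0.34 over C. glabrata and -0.75 over N. castellii, and at 2-fold the background of lower calls was 11.2%, 11%, 10.8% and 10.1%. VMA2 averaged 1213 ± 34.2 CPM in K. lactis, 4169 ± 14.8 in S. cerevisiae, 2789 ± 40.6 in S. paradoxus, 1161 ± 39.2 in C. glabrata and 2758 ± 40.8 in N. castellii, so that K. lactis and C. glabrata did not differ past the threshold (log2 fold change 0.06 ± 0.07, edgeR adjusted p = 0.38). CIS3 was low in K. lactis alone of the 5 yeasts, at 214 ± 13.3 CPM in K. lactis, 2478 ± 51.9 in S. cerevisiae, 3905 ± 136 in S. paradoxus, 2711 ± 224 in C. glabrata and 5050 ± 866 in N. castellii. STE2 averaged 138 ± 15.6 CPM in K. lactis, 2410.4 ± 72.4 in S. cerevisiae, 1899.7 ± 59.1 in S. paradoxus, 118 ± 16.1 in C. glabrata and 25.6 ± 4.71 in N. castellii. STE3 ran the other way in the last of these, with 68.6 ± 7.32 CPM in K. lactis, 3.06 ± 2.83 in S. cerevisiae, 17.8 ± 6.43 in S. paradoxus, 14.2 ± 11.8 in C. glabrata and 362 ± 13.4 in N. castellii. NOP9, higher in K. lactis than in S. cerevisiae, stood at 1214 ± 91.8 CPM in K. lactis, 348 ± 18.2 in S. cerevisiae, 430.4 ± 54.6 in S. paradoxus, 1253.5 ± 54.3 in C. glabrata and 1254 ± 31.4 in N. castellii; the last 2 did not differ from K. lactis past the threshold. Ribosome biogenesis lists had medians above 0 over S. cerevisiae alone, at 0.34 for the small and 0.20 for the large subunit. In the same order they were near equality over S. paradoxus, at -0.10 and -0.04. They were at -0.56 and -0.61 over C. glabrata and at -0.07 and -0.24 over N. castellii.

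**Figure D5:**
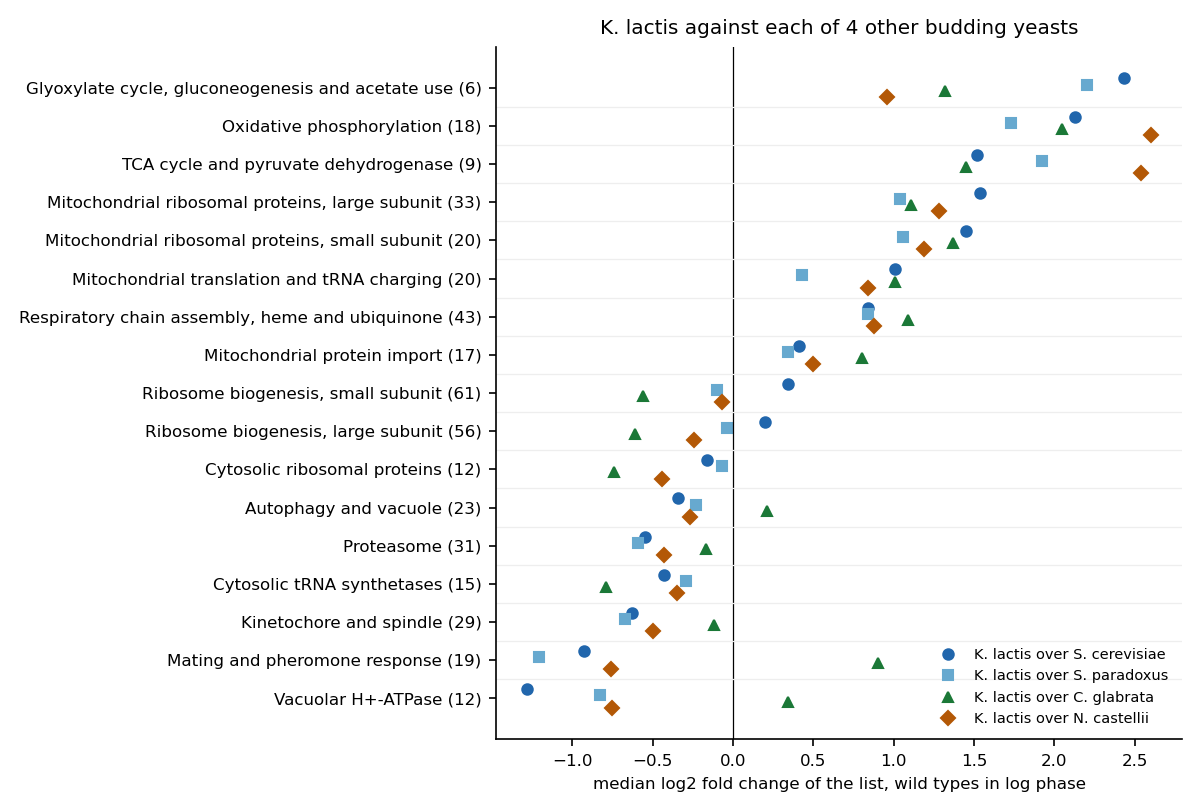
Median log2 fold change of wild type K. lactis over each of 4 other wild type yeasts for each gene list, on orthogroups with 1 counted gene in all 5 species. Oxidative phosphorylation and mitochondrial ribosomal lists are above 1 against each yeast, while the vacuolar ATPase is below 0 against S. cerevisiae, S. paradoxus and N. castellii and above it against C. glabrata.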

How the data were processed

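RNA-seq of polyadenylated RNA, sequenced as paired 25-base reads per the labels' protocols, was deposited as 1 table per species with the libraries as columns. The values are expected counts per gene that the authors estimated; the submitters' processing notes name RSEM 1.2.11, Bowtie 1, edgeR and the S. pombe assembly ASM294v2 without giving their roles, and for the other yeasts the genome builds were not given in the sources used here. Use of strand is not stated either, so counts of overlapping and antisense genes are uncertain, as are those of genes with near-identical copies. Between 93.1% and 99.7% of the deposited expected counts of a library were whole within a tolerance of 1e-06, and they were rounded to whole numbers here.

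Counts were joined by the deposited orthology table and library sizes recomputed over the 1:1 orthogroups. They were scaled by TMM, filtered with filterByExpr and tested two-sided with edgeR 4.0.16 quasi-likelihood fits (limma 3.58.1, R 4.3.3), with Benjamini-Hochberg adjustment over all orthogroups tested and calls at an adjusted p below 0.05. The wild type comparison used 6 libraries, the deletion comparison and the interaction all 15 libraries of the 2 species, and the comparison of 5 species its 15 wild type libraries. DESeq2 1.42.0, other scalings and filters, a replicate block, HA-tagged libraries, summed orthogroups and leaving out libraries served as alternatives. The fit was tested on simulated data. Summaries used Python 3.11.15, pandas 2.3.3 and scipy 1.17.1, and plots matplotlib 3.10.9. Sequences came from RefSeq R64 by systematic name; all 2610 genes tested were found.

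The members and gene lists were chosen with earlier results of these data known. Named genes are the 10 largest changes in each direction that passed the adjusted p, averaged at least 4 in log2 CPM and had no overlap of libraries. Added to these are, for each list with at least 5 tested members, the 2 largest changes of at least 2-fold in the direction of the median and 1 against it, and a panel of 41 names of which 30 were tested. This gave 132 genes; others in the text and the genes plotted by library were picked after their values were seen.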

Additional observations from a re-analysis of the deposited data

Results flagged for a closer look

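For 36 of the 132 named genes, the difference between the species in delta sfp1 cells departed by at least 2-fold from that in wild type cells. The rule was edgeR's interaction term at an adjusted p below 0.05 and a size of at least 1. At that p alone, without the minimum size, the interaction was higher for 25.4% and lower for 27.2% of all 2628 orthogroups. The share of all orthogroups past both limits was not counted, so the 36 cannot be set against it. Named genes outside the 36 could pass that p at a smaller size, as ATP2 did at -0.98 ± 0.09. Most named genes were picked by their wild type difference, which the interaction subtracts, so that choice favours interactions of the opposite sign. The values below are log2 interactions: the K. lactis over S. cerevisiae difference in delta sfp1 cells minus that in wild type cells. CPM of delta sfp1 cells are scaled over all 15 libraries of the 2 species, those of wild type cells over their 6.

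The largest positive one was that of HSP12, a small membrane-stabilising stress protein, at 6.87. HSP12 averaged 17601 ± 551 CPM in K. lactis delta sfp1, against 22.4 ± 3.94 CPM in S. cerevisiae delta sfp1 (SD, n = 3 each). It had 123.5, 157 and 117 CPM in wild type K. lactis, against 18.4, 22.4 and 17.5 CPM in wild type S. cerevisiae. ARA1, the arabinose dehydrogenase, was at 4.72, and averaged 1777 ± 218 CPM in K. lactis delta sfp1, against 1048 ± 45.5 CPM in S. cerevisiae delta sfp1, where the wild type difference had the other sign. The nicotinamidase gene PNC1 was at 3.47 and averaged 177 ± 7.33 CPM in K. lactis delta sfp1, against 183 ± 5.86 CPM in S. cerevisiae delta sfp1. URA1, dihydroorotate dehydrogenase of pyrimidine synthesis, was at 2.59, with a rise of 0.84 from the deletion in K. lactis and a fall by 1.76 in S. cerevisiae. The other positive values were 3.16 for MET14, 2.89 for EST3, 2.83 for CIS3, 2.15 for ADH4, 1.89 for GPA1, 1.78 for APE3, 1.43 for LEU1, 1.28 for TYE7, 1.24 for AHP1, 1.16 for PEP4, 1.14 for MUM2, 1.11 for VTC1 and 1.05 for CTR2.

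Among the negative values, mitochondrial genes recurred: -2.06 for MRPS5, -1.64 for MRPL4, -1.35 for MRPS28, -1.41 for the import channel gene TIM17 and -1.18 for IDH1. The arginine genes ARG3 and ARG1 were at -3.13 and -1.37, and PCK1 of gluconeogenesis at -2.98. ARG3 fell by 1.26 with the deletion in K. lactis and rose by 1.87 in S. cerevisiae. LYS2, which did not pass the test between wild types, was at -1.76 and averaged 550 ± 43.9 CPM in K. lactis delta sfp1, against 1773 ± 25.8 CPM in S. cerevisiae delta sfp1. The remaining values were -2.27 for DIT1, -1.91 for STE3, -1.44 for CYB5, -1.39 for REC8, -1.24 for THI4, -1.15 for ROT2, -1.13 for GAL7, -1.12 for MET8 and -1.11 for RPB11. YGL262W had a fitted value of -12.40, which depends on the prior count because K. lactis delta sfp1 and wild type S. cerevisiae had 0 counts in every library. It had 76.0, 67.5 and 77.0 CPM in wild type K. lactis.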

How the results depend on the processing

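Of 1848 values of the 132 named genes under the alternatives, 1830 kept their direction and their side of the threshold. ACT1 and RPS3 changed sign: ACT1 was at -0.03 against the HA-tagged S. cerevisiae libraries (edgeR adjusted p = 0.671) and RPS3 at 0.00 with summed orthogroups (adjusted p = 0.944), so neither has a settled direction. Calls of HAP5, NOP1 and RPS3 were lost under at least 1 alternative, and ACT1, LYS2 and NOP56 gained one. NOP1 lost its call without K. lactis library C (0.12) or S. cerevisiae library A (0.11). Counts of calls stayed within 1.5 times under each alternative run: at 2-fold, DESeq2 gave 404 higher and 296 lower, the HA-tagged libraries 385 and 291, summed orthogroups 490 and 396, and leaving out 1 library 388 to 393 higher and 298 to 307 lower. Between 625 and 691 of the 691 calls at 2-fold were shared. The median of a list changed sign in 8 of 43 lists, whose medians had been between -0.08 and 0.19, and shifted by at most 0.28. The scalings moved the median of all orthogroups by at most 0.014. Deviations of libraries with the same letter in the 2 species had correlations of -0.0289, 0.0445 and 0.00036. Those with different letters ran from -0.0484 to 0.0383. No shared deviation was thus seen, but these few values cannot exclude a common batch. A replicate block gave 980 higher and 1002 lower, 388 and 299 of them at 2-fold. A correction for gene length was not run, because K. lactis gene lengths were not used here. Depth limits genes of a few CPM, for which a K. lactis or S. cerevisiae library holds few counts, and the smallest S. cerevisiae library had 434249 counts on the orthogroups.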

Other observations

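Meiosis and sporulation genes, which S. cerevisiae reserves for starved diploid cells, went both ways. Of 28 tested, 11 were higher and 8 lower in K. lactis, against 37.5% and 38.7% of all orthogroups, and 7 and 6 by at least 2-fold, against 14.9% and 11.6%, with a median log2 fold change of 0.27. DIT1, an enzyme of the spore wall, had 74.6, 65.0 and 69.1 CPM in K. lactis, against 4.61, 3.05 and 7.01 CPM in S. cerevisiae. REC8, the meiotic cohesin subunit, had 59.7, 77.7 and 63.9 CPM in K. lactis, against 2.30, 5.09 and 5.84 CPM in S. cerevisiae. In the other direction, CST9, of meiotic recombination, had 12.2, 16.6 and 9.13 CPM in K. lactis, against 108, 79.4 and 84.1 CPM in S. cerevisiae. The libraries did not overlap for any of these genes, as for 75.5% of all orthogroups.

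Of 22 fatty acid and phospholipid synthesis genes, 9 were higher and 11 lower, against 37.5% and 38.7% of all orthogroups. The median was -0.15, and the extremes lay on both sides. OLE1, the fatty acid desaturase, had 4550.4, 4151.5 and 4173 CPM in K. lactis, against 969.8, 926 and 965 CPM in S. cerevisiae, a log2 fold change of 2.17 ± 0.05. INO1, which makes inositol phosphate, had 5.43, 2.55 and 3.91 CPM in K. lactis, against 36.9, 26.5 and 19.9 CPM in S. cerevisiae, a log2 fold change of -2.67 ± 0.45. Lists with medians near equality were translation factors at -0.08, splicing at 0.05, mRNA decay at 0.04 and heat shock chaperones at 0.06.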
